A study of Mus musculus with 12 samples.

Results

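The cytosolic ribosomal protein genes encode the proteins of the ribosome that translates mRNA in the cytoplasm. They were taken here as the genes whose single annotated symbol was Rps or Rpl followed by a number and an optional letter, together with Rpsa, Rplp0, Rplp1 and Rplp2, and without the Rps6k kinases. The array annotation held 49 such genes with 105 probe sets, out of 18193 genes with 34945 probe sets that carried a single gene symbol. Of the 49 genes, 21 encode proteins of the small subunit, 20 encode proteins of the large subunit, 2 (Rplp0 and Rplp2) encode proteins of the stalk that recruits elongation factors, and 6 are paralogs or related genes of the main set (Rpl22l1, Rpl39l, Rpl3l, Rpl7l1, Rps27l and Rps4l). Some ribosomal protein genes, among them Rpl3, Rpl5, Rpl10, Rpl10l and Rplp1, had no probe set of their own under this rule and were not analysed here as single genes. Another 110 probe sets named a ribosomal protein gene together with other genes, mostly pseudogenes, and are described separately.

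Each ribosome holds a single copy of nearly every one of these proteins, and their mRNAs are among the most abundant in growing cells. The mRNAs begin with a tract of pyrimidines, the TOP motif, through which mTOR signalling and the protein Larp1 control their translation, so that protein output can change while mRNA levels stay level. Ribosome production begins in the nucleolus, where RNA polymerase I makes most of the rRNA and assembly factors join it to the proteins, and the subunits finish maturing in the cytoplasm. A few ribosomal protein genes have paralogs with their own expression pattern, such as Rpl39l, which is best known from mouse testis.

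The series measured mouse embryonic stem cells on Affymetrix arrays in 4 groups of 3 arrays. These were Tcf3-/- cells (knockout) and Tcf3+/+ cells (wild type) given 50 ng/ml recombinant Wnt3a for 24 h, and knockout and wild-type cells in control medium. All cells grew on gelatin without feeder cells in medium with 15% serum and Lif, a cytokine that keeps stem cells self-renewing. Tcf3 is the older name of Tcf7l1, a DNA-binding partner of beta-catenin that mostly represses its targets in these cells, and Wnt3a is a ligand that stabilises beta-catenin. The labels do not say how many knockout clones were used or whether replicates came from different cultures. The p-values therefore cover the scatter among these arrays alone, and that scatter may be technical.

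The targeted gene checked the genotype labels: Tcf7l1 was at log2 9.58, 9.37 and 9.45 on the knockout arrays in control medium, against 10.77, 10.90 and 10.87 on the wild-type arrays. The groups did not overlap, and the difference was -1.38 on the log2 scale (SE 0.10, adjusted p 1.17e-06 by limma over all genes). A second Tcf7l1 probe set had means of 9.04 on knockout and 10.80 on wild-type arrays in control medium. Both probe sets stayed above the detection floor of log2 5.56 on knockout arrays, and what they detect there was not tested. The 8 stem cell markers examined lay above the detection floor of log2 5.56 in every group. Their summed level was 16.48 to 16.52 on knockout arrays, against 16.07 to 16.18 on wild-type arrays in control medium. In Wnt3a medium it was 16.54 to 16.62 against 16.33 to 16.45. Lists for other cell types had 6 to 8 of 10 fibroblast and feeder genes above it (Col3a1 and Lum under it in every group), 2 of 4 blood genes (Ptprc and Hba-a1 under it), 3 to 4 of 4 neural, 2 to 3 of 4 trophoblast and 1 to 2 of 3 endoderm genes. The summed level of the blood list was 9.68 to 9.94 on knockout arrays, against 8.45 to 8.69 on wild-type arrays in control medium, and 9.64 to 9.73 against 8.17 to 8.64 in Wnt3a medium. That of the trophoblast list was 8.07 to 8.29 against 8.67 to 9.18, and 8.11 to 8.25 against 8.51 to 8.70. The endoderm list had 7.33 to 9.23 against 7.22 to 7.57, which overlap, in control medium, and 8.62 to 8.63 against 7.97 to 8.33 in Wnt3a medium. The part of these lists in the results was not tested. Some quality measures moved with the groups. The signal of a bacterial spike-in control (dap) was 11.6 to 11.8 on Wnt3a arrays, against 4.35 to 4.48 on control-medium arrays, so medium and array preparation cannot be told apart. The 3' minus 5' difference of the actin control probe sets was 0.31 to 0.41 on knockout arrays, against 0.18 to 0.24 on wild-type arrays in control medium, and 0.36 to 0.41 against 0.24 to 0.27 in Wnt3a medium; its part in the results was not tested.

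The family sat at the top of the array's range. The deposited intensities were put on a log2 scale and each gene was represented by its brightest probe set. With that choice 36 of the 49 genes were among the brightest 1% of all probe sets, and 34 had a mean above log2 14, where the brightest probe set of the array that is not a control averaged 14.94. A probe set's brightness depends on its probes as well as on its transcript, so genes are not ranked by abundance here. Rpl3l, known from muscle, and Rps16, through a dim probe set, did not pass the filter on low values. Rpl3l had log2 5.63, 5.33 and 5.60 on knockout Wnt3a arrays, 5.08, 5.24 and 5.18 on wild-type Wnt3a arrays, 5.40, 5.24 and 5.19 on knockout control arrays, and 4.91, 4.88 and 4.82 on wild-type control arrays, mostly under the floor. Comparisons therefore cover 47 of the 49 genes.

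The median over the family was nearly the same on all arrays. The median log2 level over the 47 genes was 14.45 to 14.47 on knockout Wnt3a arrays, 14.44 to 14.47 on wild-type Wnt3a arrays, 14.47 to 14.49 on knockout control arrays and 14.46 to 14.47 on wild-type control arrays. The spread was small from array to array as well: the median SD within a group was 0.020 for these genes, against 0.094 for all 13811 genes tested, and 41 of 47 genes ranged over less than 0.5 across all 12 arrays. This median lies among the brightest probe sets, where dimmer probe sets of the same gene at times moved more (given further on for Rps24 and Rpl27), so it does not show that the RNA was unchanged. RNA was measured in bulk and the arrays were normalised to each other, so fewer cells and less RNA per cell cannot be told apart, and a change shared by most transcripts would not be seen.

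The first question was what loss of Tcf7l1 does to these genes in control medium. Most were not called. 5 genes were higher in the knockout cells (Rpl39l, Rps25, Rpl7l1, Rpl12 and Rpl37) and 1 was lower (Rpl14), and the median log2 difference over the 47 genes was 0.02. By the same test 19.9% of all genes were called higher and 22.3% called lower, so 5 of 47 (10.6%) and 1 of 47 (2.13%) are both below the background. In 39 of 47 genes (83.0%) the 95% interval of the difference lay wholly within 0.25 on either side of 0, which held for 20.6% of all genes. Among probe sets that averaged above log2 14, it held for all 34 ribosomal protein genes and for 34 of 37 other genes (91.9%). Narrow intervals around 0 are thus shared by other bright probe sets. Calls rest on limma with an adjusted p under 0.05 over all genes.

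**Figure D1:**
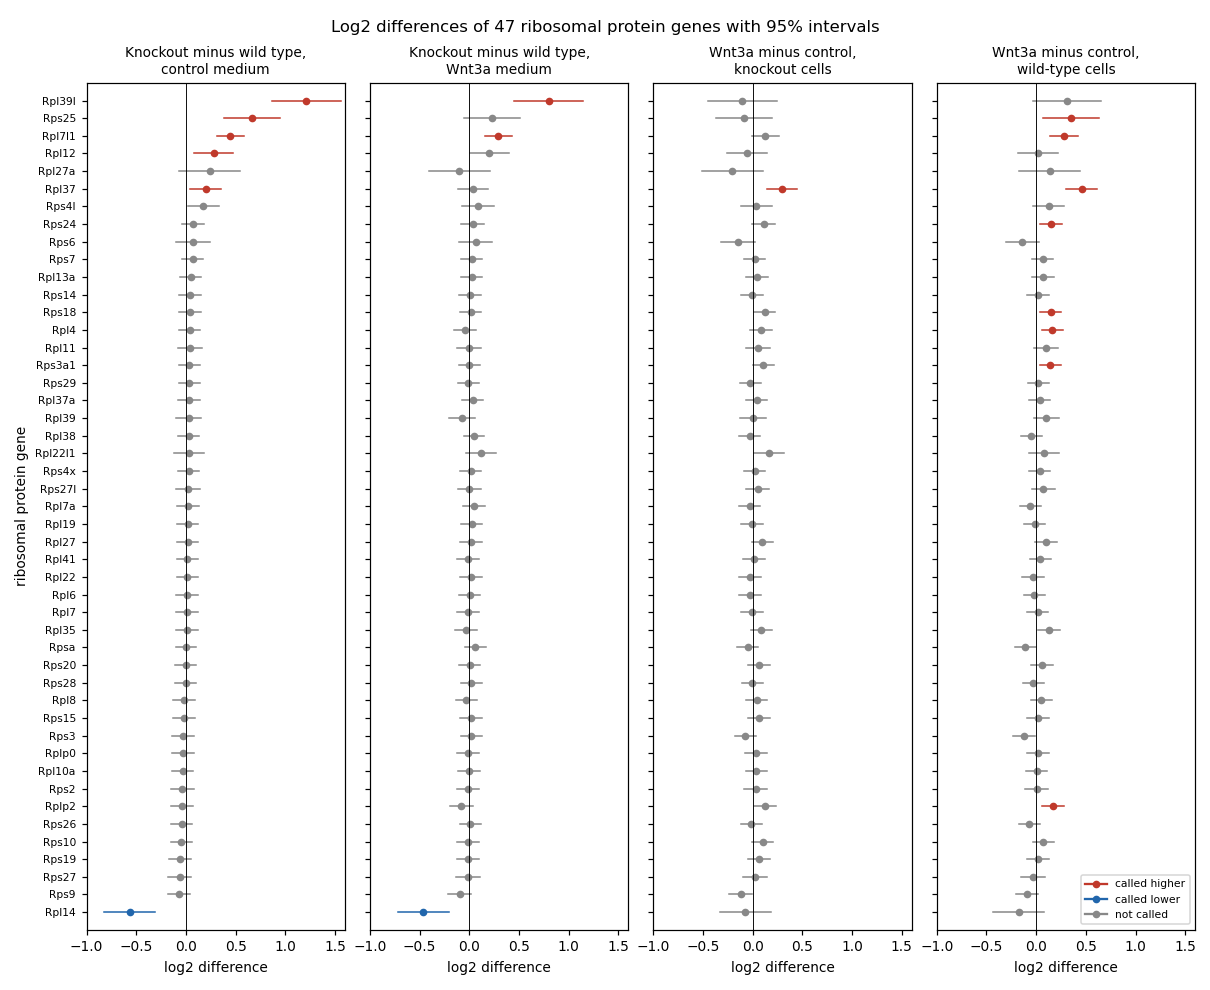
Log2 difference (horizontal axis) with its 95% interval for each of the 47 ribosomal protein genes tested (rows, ordered by the difference in control medium) in the 4 pairwise comparisons. Red marks genes called higher and blue genes called lower; most points lie close to 0, and Rpl39l stands farthest from it at 1.21 in control medium.

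The 6 called genes were all among the 13 tested genes whose brightest single-gene probe set averaged log2 14 or less. Of those 13, 5 (38.5%) were higher and 1 (7.69%) lower in knockout cells, where 19.9% and 22.4% of the 13727 other genes at this brightness were called. Probe sets that name some of these genes with others were brighter. Those of Rpl12 had group means of 14.38 to 14.48, against a mean of 10.62 for its own. The split is therefore one of probe sets and does not rank genes by expression. Above log2 14 none of 34 genes was called by limma in either comparison of genotypes in the fit used throughout, and none had an unadjusted p under 0.05. Of 37 other genes whose probe set averaged above log2 14, 2 were called higher and 2 lower by the knockout in control medium. The median standard error of a difference was 0.050 for ribosomal protein genes, 0.052 for those 37 other genes and 0.089 for all genes. limma moves each gene's spread toward that of all genes, and the median SD within a group was 0.020 for ribosomal protein genes. Once an intensity trend was fitted, Rps7 (0.07, adjusted p 0.0151) and Rps24 (0.07, adjusted p 0.029) were called higher in control medium. In Wnt3a medium Rplp2 (-0.08) and Rps9 (-0.10) were then called lower and Rpsa (0.06) higher. Whether such bright probe sets respond fully to a change in RNA was not tested.

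Rpl39l, the paralog of the exit-tunnel protein gene Rpl39, showed the largest difference. In control medium its log2 intensity was 13.02, 12.91 and 12.79 on knockout arrays, against 11.36, 11.99 and 11.74 on wild-type arrays. All knockout arrays lay above all wild-type arrays. The difference was 1.21 (SE 0.16, 95% interval 0.87 to 1.56), a 2.32-fold rise with an adjusted p of 7.52e-05 by limma. Rpl39 itself, on the X chromosome, had 6.59, 6.60 and 6.64 on knockout arrays, against 6.59, 6.59 and 6.56 on wild-type arrays. These values overlap, with a difference of 0.03 (95% interval -0.10 to 0.16). Rpl39's own probe set was dim. Another, which names Rpl39 with other genes, differed by 0.06 and was not called.

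Upstream sequences are shown for the pair Rpl39l and Rpl39 and for the 2 main-set genes with the largest differences of opposite sign, Rps25 and Rpl14. They are the 250 bases before the RefSeq start of each gene, read 5' to 3' on the gene's strand in build GRCm38.p6, at chr16:10169978-10170227 (plus strand), chrX:37085223-37085472 (minus), chr9:44407464-44407713 (plus) and chr9:120571267-120571516 (plus). Capitals mark matches on either strand to CCGGAAG, the core bound by ETS-family factors such as GABPA.
Rpl39l: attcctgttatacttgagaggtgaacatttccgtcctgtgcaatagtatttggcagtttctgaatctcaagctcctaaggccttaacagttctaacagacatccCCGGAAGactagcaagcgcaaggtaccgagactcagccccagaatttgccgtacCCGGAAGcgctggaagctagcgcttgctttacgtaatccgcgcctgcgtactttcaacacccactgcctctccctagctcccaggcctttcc
Rpl39: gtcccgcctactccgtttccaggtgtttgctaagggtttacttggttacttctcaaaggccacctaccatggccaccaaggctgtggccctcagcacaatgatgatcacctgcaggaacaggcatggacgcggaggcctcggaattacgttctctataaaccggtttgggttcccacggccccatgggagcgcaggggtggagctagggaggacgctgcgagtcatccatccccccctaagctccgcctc
Rps25: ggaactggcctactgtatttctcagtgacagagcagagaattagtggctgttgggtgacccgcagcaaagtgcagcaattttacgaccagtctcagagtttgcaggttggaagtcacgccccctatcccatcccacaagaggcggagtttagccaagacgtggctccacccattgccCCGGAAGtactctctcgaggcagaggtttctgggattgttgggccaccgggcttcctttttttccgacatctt
Rpl14: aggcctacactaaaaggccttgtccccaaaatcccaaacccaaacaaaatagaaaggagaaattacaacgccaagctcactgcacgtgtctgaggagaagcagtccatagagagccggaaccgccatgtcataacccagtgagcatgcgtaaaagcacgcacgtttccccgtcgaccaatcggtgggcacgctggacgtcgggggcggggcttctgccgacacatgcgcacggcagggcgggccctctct
Rpl39l holds 2 matches, which begin 146 and 92 bases before the start, Rps25 holds 1 at 73 bases, and Rpl39 and Rpl14 hold none in these stretches, although Rpl39 holds 1 match in the bases just after its start.

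Windows from 250 bases before to 50 bases after the start were found for 43 of the 49 genes, 51 windows in all. CCGGAAG, searched on both strands, occurred in 21 of these windows (41.2%), against 8.86% of 32851 RefSeq windows of the same length. The YY1 core CCATNTT occurred in 31.4% of the family's windows against 16.1% of all, the Sp1 core GGGCGG in 52.9% against 35.7%, the E-box CACGTG in 9.80% against 7.15% and the TATA box TATAAA in 11.8% against 13.6%. The Tcf/Lef core CTTTGAT was in 0 of 51 windows, against 3.73% of all. A run of at least 6 pyrimidines reaching within 5 bases of the start was present in 45.1% of the family's windows, against 21.0% of all. No CCGGAAG match in the family overlapped a match of another of these motifs. Matches are descriptions of sequence, and their bearing on the measurements was not tested.

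Rpl7l1, related to Rpl7 and linked to assembly of the large subunit, was also higher without Tcf7l1. It had log2 12.28, 12.21 and 12.28 on knockout arrays, against 11.71, 11.91 and 11.79 on wild-type arrays in control medium. The groups did not overlap, and the difference was 0.45 (SE 0.06, adjusted p 0.000136). All 3 of its probe sets were called, with differences of 0.45, 0.38 and 0.38. Rpl7 differed by 0.01 (95% interval -0.09 to 0.12).

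Rps25, a small-subunit protein known for its part in initiation from internal ribosome entry sites, had log2 11.07, 10.97 and 10.75 on knockout arrays, against 10.13, 10.45 and 10.22 on wild-type arrays. Every knockout value exceeded every wild-type value, with a difference of 0.66 (SE 0.13, adjusted p 0.00129). Rpl14, a large-subunit protein, went the other way. It had 9.58, 9.48 and 9.70 on knockout arrays, against 9.92, 10.39 and 10.15 on wild-type arrays. The groups did not overlap, and Rpl14 fell by 0.57 on the log2 scale (SE 0.12, adjusted p 0.00207). Each rested on a single probe set. Of the probe sets that name these genes together with others, the 1 for Rps25 differed by 0.07 and the 5 for Rpl14 by -0.05 to 0.05, and none was called. The 5 for Rpl14 were also much brighter, with group means of 13.63 to 14.34, against a mean of 9.81 for its own probe set. The single-gene and multi-gene probe sets of Rps25 and Rpl14 thus disagreed, and the series does not say which transcripts each detects.

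Rpl12 and Rpl37, both of the large subunit, showed the smallest called differences. Rpl12 had log2 10.80, 10.71 and 10.80 on knockout arrays, against 10.37, 10.68 and 10.42 on wild-type arrays, a gap that is narrow at the second wild-type array. Its difference was 0.28 (SE 0.09, adjusted p 0.0275). Rpl37 had 11.45, 11.74 and 11.56 on knockout arrays, against 11.40, 11.36 and 11.40 on wild-type arrays, with a difference of 0.20 (SE 0.07, adjusted p 0.0388). The 2 probe sets that name Rpl12 with other genes differed by 0.05 and 0.07 and the 3 that name Rpl37 by -0.08 to 0.07, and none was called. The Rpl12 call was lost when replicate 1 or 3 of either genotype in control medium was left out (adjusted p 0.0738 to 0.109). That of Rpl37 was lost without any of the 3 wild-type control arrays, without knockout control replicate 2 (0.12, adjusted p 0.151) or 3, without replicate 2 of either Wnt3a group, with no filter, with repeated normalisation, with the replicate block and with only the arrays compared. Leaving out wild-type control replicate 1 or 3, or knockout control replicate 3, reduced the higher calls to 3.

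**Figure D2:**
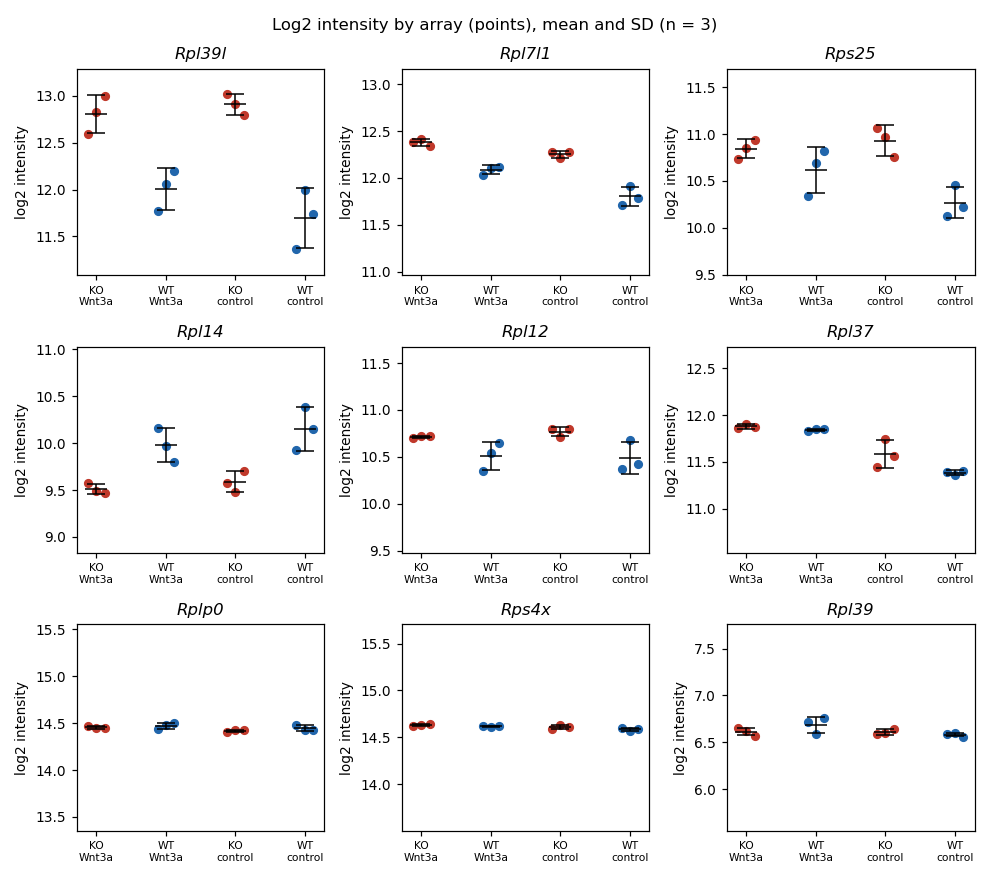
Log2 intensity of 9 ribosomal protein genes on each array (points; red knockout, blue wild type), with the mean and SD of the 3 arrays of a group (black); every vertical axis spans the same log2 range. Rpl39l, Rpl7l1 and Rpl14 differ between genotypes in both media, while Rplp0 and Rps4x stay nearly level.

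Other well-known members were not called between genotypes in either medium in the fit used throughout. Among them Rpsa was called higher in knockout Wnt3a cells once an intensity trend was fitted (0.06, adjusted p 0.0358). They include Rplp0, the stalk base often used as a reference gene, Rpsa, also known as a laminin receptor precursor, and Rps6, the substrate of S6 kinase. They also include Rpl11, which with Rpl5 can bind Mdm2, Rpl38, needed in mice for translation of certain Hox mRNAs, Rps19, often mutated in Diamond-Blackfan anaemia, and the X-linked Rps4x. With Rpl7, Rpl39 and the pairs Rpl22 and Rpl22l1 and Rps27 and Rps27l, these 13 genes differed by -0.07 to 0.11 over both media. Rplp0, for example, had 14.41, 14.42 and 14.43 on knockout control arrays, against 14.48, 14.43 and 14.43 on wild-type control arrays. Rps4l, a relative of Rps4x, had a difference of 0.18 in control medium (adjusted p 0.0696). It became called without replicate 2 of the wild-type control arrays (0.25, adjusted p 0.0133) or of the knockout control arrays (0.22, adjusted p 0.0472). With all arrays kept, Rps4l was also called with median centring (0.25, adjusted p 0.0122) and with an intensity trend (0.18, adjusted p 0.018).

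The same question was asked in Wnt3a medium. 2 genes were higher in knockout cells (Rpl39l and Rpl7l1) and 1 was lower (Rpl14), with a median of 0.01 over the 47 genes. Of all genes 13.2% were called higher and 14.7% lower, so the 2 of 47 (4.26%) and 1 of 47 (2.13%) again lie below the background.

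Rpl39l had log2 12.59, 12.83 and 12.99 on knockout Wnt3a arrays, against 11.77, 12.06 and 12.20 on wild-type Wnt3a arrays. The groups were separate, and the difference was 0.80 (SE 0.16, adjusted p 0.00312), a 1.74-fold rise. Rpl7l1 had 12.38, 12.42 and 12.34 on knockout arrays, against 12.03, 12.11 and 12.12 on wild-type arrays. The difference was 0.29 (SE 0.06, adjusted p 0.00501), with no overlap. Rpl14 had 9.58, 9.49 and 9.47 on knockout arrays, against 10.17, 9.97 and 9.80 on wild-type arrays. It fell by 0.46 (SE 0.12, adjusted p 0.0121), again with no overlap, and the call was lost without wild-type Wnt3a replicate 1 (-0.37, adjusted p 0.0522).

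Rps25 was not called in Wnt3a medium. It had log2 10.74, 10.86 and 10.94 on knockout arrays, against 10.34, 10.69 and 10.82 on wild-type arrays. The groups overlapped, and the difference was 0.23 (95% interval -0.05 to 0.51). The genotype comparisons in the 2 media share no array. The sign was the same in 32 of 47 ribosomal protein genes (68.1%), against 74.9% of all genes. 3 genes were called the same way in both, which is 50% of those called in control medium and 100% of the 3 called in Wnt3a medium. Over all genes these shares were 50.5% and 76.2%.

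The next question was what Wnt3a does to the family in wild-type cells. 8 genes were called higher with Wnt3a and 0 lower, by differences of 0.14 to 0.46, and the median over the 47 genes was 0.04. The background was 18.9% of all genes called higher and 22.6% called lower, so the share called higher (17.0%) was near it and none of the 47 was called lower, although 2 (Rps3 at -0.12 and Rpsa at -0.11) had an unadjusted p under 0.05. The signal of the 18S rRNA control probe set also moved, at 10.68 to 10.96 on wild-type Wnt3a arrays against 9.06 to 9.48 on wild-type control arrays; its part was not tested. Other settings put up to 5 genes in the lower group, and the number called higher depended strongly on the setting. It was 2 with only the 6 wild-type arrays fitted and 5 with the replicate number as a block. An intensity trend gave 15, and centring each array on its median gave 17. Of all 13811 genes, 2474 were called higher with the block, 2722 with the trend and 3715 with centring. The family's share was thus below that of all genes with the block, and above it with the trend and with centring. Without wild-type control replicate 3 or wild-type Wnt3a replicate 3 it was 2, and without wild-type control replicate 1 or wild-type Wnt3a replicate 2 it was 4.

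Rpl37 showed the largest difference. It had log2 11.83, 11.85 and 11.85 on wild-type Wnt3a arrays, against 11.40, 11.36 and 11.40 on wild-type control arrays. The groups lay far apart relative to their spread, and the difference was 0.46 (SE 0.07, adjusted p 0.000428), or 1.37-fold. The 3 probe sets that name Rpl37 with other genes ran from -0.40 to 0.46, with 1 called higher and 1 lower.

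Rpl7l1, at 12.03, 12.11 and 12.12 on wild-type Wnt3a arrays against 11.71, 11.91 and 11.79 on wild-type control arrays, was higher by 0.28 (adjusted p 0.00439), a call lost when its probe sets were averaged (0.16, adjusted p 0.0995). Rps25 was higher by 0.35 (SE 0.13, adjusted p 0.0463), although its arrays overlapped. Rplp2, an acidic protein of the stalk, had 14.81, 14.80 and 14.87 on Wnt3a arrays, against 14.68, 14.64 and 14.65 on control arrays. Its groups did not overlap, and the difference was 0.17 (SE 0.05, adjusted p 0.0201).

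The remaining 4 were chosen for naming after their values were seen: Rpl4, a protein of the exit tunnel, Rps24, needed for maturation of 18S rRNA, and Rps18 and Rps3a1, both of the small subunit. Their differences were 0.16, 0.15, 0.15 and 0.14, with adjusted p from 0.0211 to 0.0361. The Wnt3a calls of Rps25, Rplp2, Rpl4, Rps24, Rps18 and Rps3a1 were each lost under the fit of only the arrays compared (adjusted p 0.055 to 0.0856), and without wild-type control replicate 3 or wild-type Wnt3a replicate 3 (adjusted p 0.051 to 0.173).

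In knockout cells Wnt3a gave a single call. Rpl37 was higher, with log2 11.86, 11.91 and 11.88 on knockout Wnt3a arrays, against 11.45, 11.74 and 11.56 on knockout control arrays. The groups did not overlap, and the difference was 0.30 (SE 0.07, adjusted p 0.0095). The median over the 47 genes was 0.02. The background was 13.3% called higher and 14.7% called lower, so 1 of 47 (2.13%) lies well below it in the fit used throughout. No gene was called lower by limma, and 1 (Rps9 at -0.12) had an unadjusted p under 0.05 in that direction. With an intensity trend 11 of 47 genes were called higher and 2 lower, beside 2015 higher and 2066 lower of all 13811 genes. With median centring 10 of 47 were called higher, beside 2763 of 13811. In these 2 settings the share called higher was thus not below that of all genes. Rpl39l had a difference of -0.10 (95% interval -0.45 to 0.24). The 2 Wnt3a comparisons share no array, and the sign was the same in 39 of 47 genes (83.0%), against 74.3% of all genes.

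Whether the effect of Wnt3a differed between knockout and wild-type cells was tested by the interaction. None of the 47 genes was called by limma in either direction, against 2.2% of all genes called higher and 1.88% called lower. Rps25 was the 1 gene with an unadjusted p under 0.05, with an interaction of -0.44 (SE 0.18, adjusted p 0.192). Rpl39l had -0.41 (95% interval -0.90 to 0.08, adjusted p 0.318). The calls made in wild-type cells and not in knockout cells are therefore not shown to differ between genotypes.

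Probe sets gave a second view of the same genes. Of the 105 probe sets, 98 passed the filter. Between genotypes in control medium 9 were higher in the knockout and 1 lower, where 18.0% and 18.2% of all 28483 probe sets were called higher and lower. In Wnt3a medium 3 were higher and 1 lower (background 10.8% and 13.2%). With Wnt3a, 11 were higher and 5 lower in knockout cells (background 14.9% and 16.0%), and 24 were higher and 4 lower in wild-type cells (background 20.8% and 21.7%). No gene had probe sets called in opposite directions between genotypes, while 2 genes did for Wnt3a in knockout cells and 1 did in wild-type cells, of 21 genes with several probe sets.

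Several genes had probe sets that moved to different degrees, and the examples were chosen after their values were seen. For Wnt3a in wild-type cells the differences of the Rps24 probe sets were 0.15 at a mean level of log2 14.6, 0.24 at 14.2, 0.31 at 13.96, 0.44 at 13.6, 0.27 at 10.8 and 0.28, not called, at 6.39. Those of Rpl27, a large-subunit protein, were 0.10 at 14.2 and 0.50 and 0.33 at 13.3. In both genes the brightest probe set, which stood for the gene above, had the smallest difference. The dimmer Rps24 probe set at 10.8 was also higher in knockout cells, by 0.55 in control medium and 0.45 in Wnt3a medium, where the brightest one had 0.07 and 0.03. With probe sets whose names end in _x_at or _s_at set aside, which can match several transcripts, Rps24 was accordingly called in both genotype comparisons. Dim probe sets of other genes moved with Wnt3a in wild-type cells in either direction. Those of Rps3 fell by 0.77 and 0.32, that of Rpl35 fell by 0.50 and that of Rps10 fell by 0.28. A Rps4x probe set at 5.45 was higher by 0.89.

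**Figure D3:**
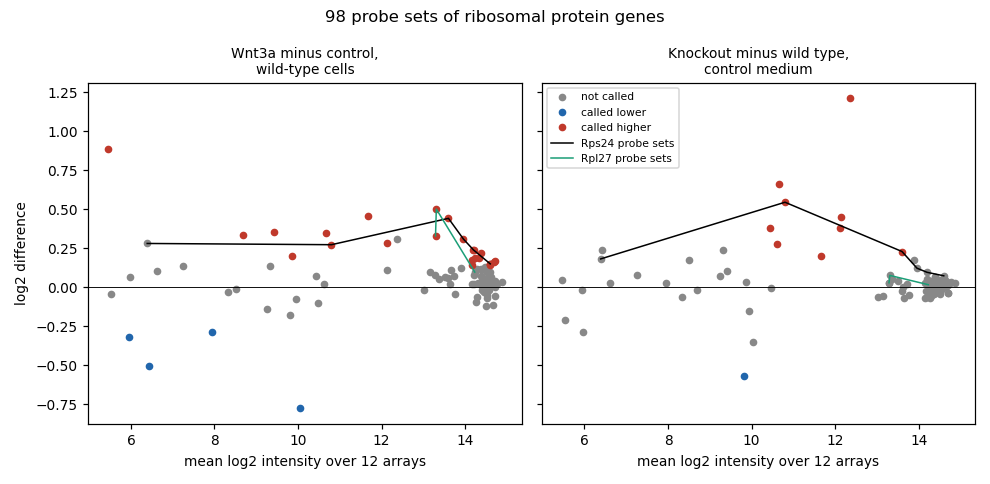
Log2 difference (vertical axis) of the 98 tested probe sets of ribosomal protein genes against their mean log2 intensity over 12 arrays (horizontal axis), for Wnt3a in wild-type cells (left) and for the knockout in control medium (right). Lines join the probe sets of Rps24 and of Rpl27; the brightest probe set of each has the smallest difference, for example 0.15 for Rps24 with Wnt3a.

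The probe sets that name a ribosomal protein gene together with other genes, of which 106 passed the filter, measure the family with its pseudogenes. Between genotypes few were called. In control medium 1 was higher and 3 lower, where 18.0% and 18.2% of all probe sets were called. In Wnt3a medium 0 were higher and 2 lower, against 10.8% and 13.2% of all probe sets. With Wnt3a, 16 were higher and 6 lower in knockout cells, and 30 were higher and 7 lower in wild-type cells, or 28.3% and 6.60% of the 106 against 20.8% and 21.7% of all probe sets. The 16 of 106 (15.1%) in knockout cells stand beside 14.9% of all probe sets called higher there, and the 6 (5.66%) beside 16.0% called lower. The largest difference between genotypes was that of a probe set that names Rpl13 and Tax1bp3, a PDZ-domain protein. It fell by 1.43 on the log2 scale in knockout cells in control medium (means of 10.4 in knockout cells and 11.8 in wild-type cells) and by 0.64 in Wnt3a medium. From these data its signal cannot be assigned to either gene. Of 3 probe sets that name Rpl5 with other genes, 2 fell in control-medium knockout cells, by 0.39 and 0.49. The 1 called higher in that comparison names Rpl17 with other genes and differed by 0.19. All 5 that name Rpl14 were higher with Wnt3a in wild-type cells, by 0.17 to 0.31, where the single-gene probe set of Rpl14 had -0.17 and was not called.

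Genes that work beside the family were described by lists chosen with earlier results of these data known, each to be read against the shares of all genes. Those shares were 19.9% higher and 22.3% lower for the knockout in control medium, 13.2% and 14.7% for the knockout in Wnt3a medium, 18.9% and 22.6% for Wnt3a in wild-type cells, and 13.3% and 14.7% for Wnt3a in knockout cells. Of 20 other genes with TOP mRNAs, such as elongation and initiation factors, 1 was higher and 2 lower by the knockout in control medium, and 4 (20%) were higher and 1 (5%) lower with Wnt3a in wild-type cells, so the higher shares were below and near those of all genes. Nap1l1, a histone chaperone, was among the lower ones (-0.33, SE 0.09, adjusted p 0.0076). Eif3m, a subunit of initiation factor eIF3, was higher with Wnt3a, by 0.44 in wild-type cells and 0.30 in knockout cells.

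Among assembly factors, many were higher with Wnt3a. Of 54 ribosome biogenesis genes, 30 (55.6%) were higher and 3 (5.56%) lower with Wnt3a in wild-type cells, with a median of 0.20 against -0.02 over all genes. In knockout cells 14 (25.9%) were higher and 5 (9.26%) lower with Wnt3a, with a median of 0.06. Utp3, of the small-subunit processome, was higher by 0.73 in wild-type cells (adjusted p 7.18e-06), and Riok2, a kinase of late small-subunit maturation, by 0.70 (adjusted p 7.29e-05). Of the 54, control-medium knockout cells had 12 higher (22.2%, near the share of all genes) and 2 lower (3.70%), among them Riok2 (0.61) and the helicase Ddx10 (0.52). The difference between the lists and the ribosomal protein genes was not tested.

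Of 33 genes for RNA polymerases I and III and their factors, knockout cells in control medium had 14 (42.4%) higher and 1 (3.03%) lower, and 10 (30.3%) were higher and 2 (6.06%) lower with Wnt3a in wild-type cells. Of 19 mTOR genes, 3 (15.8%) were higher and 2 (10.5%) lower in the same knockout comparison, both below the shares of all genes, and 7 (36.8%) were higher and 2 (10.5%) lower with Wnt3a in wild-type cells. The 76 mitochondrial ribosomal protein genes, which build the separate ribosome inside mitochondria, had 24 called higher and 7 called lower by the knockout in control medium (31.6% and 9.21%). With Wnt3a, 35 (46.1%) were higher and 4 (5.26%) lower in wild-type cells and 23 (30.3%) higher and 3 (3.95%) lower in knockout cells. Mrpl35 was higher by 0.46 in knockout cells in control medium, and Mrps9 by 0.53 with Wnt3a in wild-type cells. Between genotypes in Wnt3a medium 0 TOP genes were higher and 1 lower, 3 biogenesis genes were higher and 4 lower, 5 polymerase genes were higher and 3 lower, 1 mTOR gene was higher and 3 lower, and 14 mitochondrial genes were higher and 1 lower. With Wnt3a in knockout cells 3 TOP genes were higher and 0 lower, 3 polymerase genes were higher and 6 lower, and 4 mTOR genes were higher and 3 lower.

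**Figure D4:**
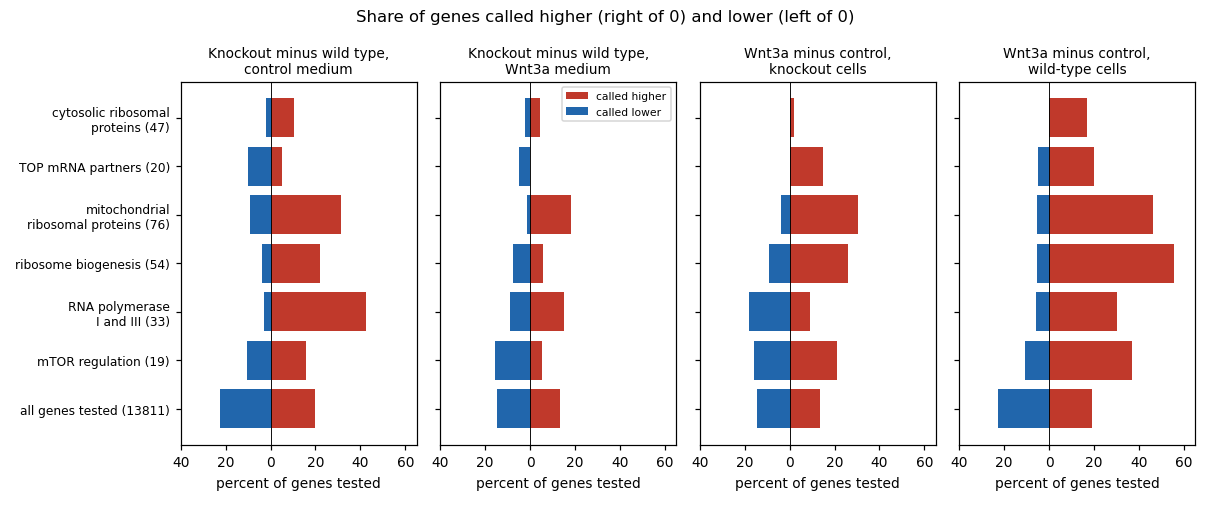
Percent of tested genes called higher (red, right of 0) and lower (blue, left of 0) by limma in the 4 pairwise comparisons, for the cytosolic ribosomal proteins, 5 lists of related genes and all genes tested, with the number of genes tested in brackets. With Wnt3a in wild-type cells 17.0% of cytosolic ribosomal protein genes and 55.6% of ribosome biogenesis genes were called higher, against 18.9% of all genes.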

How the data were processed

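The authors deposited 1 table of intensities on a linear scale for 45101 probe sets on 12 arrays. The submitters' processing notes name RMA without a version or settings. Log2 was taken with no pseudocount. Probe sets were named from the supplied platform annotation: 34945 carried 1 gene symbol, 932 several, 9160 were not listed and 64 were controls. A gene was represented by its probe set with the highest mean, and kept if at least 3 of 12 arrays exceeded the 40th percentile of all values (log2 5.56, an intensity of 47.2), which left 13811 genes. limma 3.58.1 (R 4.3.3; lmFit and eBayes) fitted 4 group means to all 12 arrays, with two-sided tests and Benjamini-Hochberg adjustment over all genes tested; a gene was called at an adjusted p under 0.05. Probe sets were fitted likewise over all 28483 that passed the filter. The fit was tested on simulated data. Promoter windows came from RefSeq, build GRCm38.p6.

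Replicate numbers were not taken to pair the arrays, since the labels do not say that they do. Alternatives covered the probe set per gene, filter, scaling, arrays fitted, intensity trend, replicate block and leaving out each array. 3 arrays per group limit the precision, and no scan dates or detection calls were used. Genes named are the 4 largest called rises and falls per comparison and a fixed set of paralogs, stalk, disease-linked and X-linked members, with others said to be named afterwards; lists contributed up to 2 genes each. The members and lists were chosen with earlier results of these data known.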

Additional observations from a re-analysis of the deposited data

Results flagged for a closer look

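The effect of Wnt3a on Riok2, a kinase of late small-subunit maturation, differed between genotypes by a log2 interaction of -0.46 (limma, adjusted p 0.0482). That adjusted p lies close to the threshold of 0.05. Riok2 was higher with Wnt3a in wild-type cells by 0.70. The interaction was smaller in size than this rise, so the estimate in knockout cells was a smaller rise. The probe set that names both Rpl13 and Tax1bp3 had an interaction of 0.79 (SE 0.17, adjusted p 0.0327). It fell with Wnt3a in wild-type cells by 0.57 and had a difference of 0.22, not called, in knockout cells. Groups of 3 arrays are too small for single arrays to be tested as outlying.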

How the results depend on the processing

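The genotype calls of Rpl39l and Rpl7l1 in both media, and those of Rps25 and Rpl14 in control medium, kept their direction and stayed past the threshold under every alternative that tested the gene. Rpl39l, Rps25 and Rpl14 each have a single probe set of their own, so every alternative used the same one. Counts of called genes moved more. Genes higher in knockout cells in control medium numbered 5, and 9 probe sets, 8 with median centring, 8 with an intensity trend and 3 to 5 with single arrays left out. Genes lower in knockout cells in Wnt3a medium numbered 1, and 2 probe sets when adjusted over single-gene probe sets alone (1 when adjusted over all probe sets), 3 with a trend and 0 to 1 with arrays left out. Genes higher with Wnt3a in knockout cells numbered 1, and 4 when a gene's probe sets were averaged, 0 without _x_at and _s_at ones, 11 as probe sets, 10 with median centring, 11 with a trend and 1 to 2 with arrays left out; those lower numbered 0, and 1 with the mean, 5 as probe sets and 2 with a trend. Genes higher with Wnt3a in wild-type cells numbered 8, and 24 as probe sets, 17 with median centring, 15 with a trend, 5 with the replicate block, 2 with only the arrays compared and 2 to 9 with arrays left out; those lower numbered 0, and 2 with the mean, 4 as probe sets, 1 with the stricter filter, 3 with repeated quantile normalisation and 5 with a trend. The interaction gave 0 calls throughout. Counts over all 13811 genes moved too. With median centring, genes called higher went from 2743 to 3801 for the knockout in control medium. For Wnt3a they went from 1840 to 2763 in knockout cells and from 2615 to 3715 in wild-type cells. With a trend these 3 counts were 2815, 2015 and 2722. Probe sets tested one by one are more numerous by construction. The other causes were not tested.

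Median centring turned the share of called genes that were higher from below to above an even split: it was 60.6% against 47.1% for the knockout in control medium, 61.9% against 47.3% in Wnt3a medium, 65.2% against 47.5% for Wnt3a in knockout cells and 63.1% against 45.6% in wild-type cells. Deviations of arrays with the same replicate number correlated between -0.26 and 0.24, so the numbers are not taken to pair arrays. Signal limits the dim genes: 2 of 49 did not pass the filter.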
